A study of Mus musculus with 2 samples.

Results

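Genes that the deposited table lists with 4 or more annotated transcription start sites were described here in heart RNA of wild-type and cardiomyopathic mice. A gene was taken when its row held 4 or more start positions and at least 50 reads in the library with more reads. The genes were thus chosen by their number of listed starts and by their reads in these libraries. The criteria gave 443 genes, out of 736 rows with 4 or more starts, 9507 rows that reached the read minimum and 30385 rows in all. Of the 443 genes, 302 had 4 listed starts, 87 had 5, 34 had 6 and 20 had 7 or more, up to 17. The read minimum uses the same reads as the comparison of genotypes, so a gene of low abundance could enter through the library in which it was high. Ratios over the 443 genes are therefore descriptions and carry no test.

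Many mammalian genes are transcribed from several promoters. An alternative promoter gives a messenger RNA with another first exon, which can change the untranslated leader or the amino terminus of the protein, and different promoters of a gene can serve different tissues or stages. Promoters rich in CpG dinucleotides are typical of broadly active genes and CpG-poor ones of tissue-restricted transcripts. In striated muscle, cytoskeletal genes such as those for plectin, dystrophin and the ankyrins are textbook cases of several promoters in a gene.

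The 5′RNA-seq libraries were made from intact polyadenylated heart RNA without fragmentation, so that reads gather near transcript 5′ ends. There was 1 library of wild-type (WT) mice and 1 of MHC403/+ mice, which carry on 1 allele a missense mutation of the cardiac myosin heavy chain and are a model of hypertrophic cardiomyopathy. Both groups were of the 129/SvEv strain, 8 to 16 weeks old, and had been injected under the skin with CsA (cyclosporine A, a calcineurin inhibitor) at 15 mg/kg, 2 times a day for 2 weeks. Each library was a pool of animals, so no difference had a replicate check, no p-value is given, and an effect of genotype cannot be told apart from a response to CsA that differs by genotype. The libraries held 5468677 (MHC403) and 5481123 (WT) reads, of which the 443 genes took 3.25% and 2.33%. All 10 cardiomyocyte markers examined had at least 50 reads, with a summed level of 44312 RPM (reads per 1000000 of the library's reads) in MHC403 and 68225 in WT. Only 2 of the 10 were at least 2-fold lower in MHC403 and 0 at least 2-fold higher, so the sum does not stand for each of them. Fibroblast markers (8 of 8 detected) summed to 3225 RPM against 466, macrophage markers (8 of 8) to 320 against 112 and endothelial markers (8 of 8) to 519 against 392. Smooth muscle and pericyte markers (8 of 8) summed to 7115 RPM against 1660. This sum does not stand for each marker, since among the 7 with the read minimum only 3 showed a 2-fold excess in MHC403. The list also holds the desmin gene Des, a gene of heart muscle as well, so the sum is not specific to these cells. Which cells gave these reads was not tested. Skeletal muscle markers (8 of 8) summed to 2022 RPM against 2576. The 6 adipocyte markers summed to 546 RPM against 438, with Adipoq and Lep at 0 in both libraries. In whole hearts a change in the number of cells of a type and in RNA per cell cannot be told apart, and the part of these cell types in the ratios below was not tested.

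The listed starts of a gene usually stood far apart. The distance from the first to the last start had a median of 48707 bases, with quartiles of 16456 and 136384 bases, and ranged from 88 bases in Hmg20b to 3859930 bases in the entry Gm2897chr14+. When starts within 100 bases of each other were counted as 1, 368 of the 443 genes still had 4 or more. The genes were long, with a median of 81733 bases against 15777 in the 6076 genes with 1 listed start, and their counting windows at the starts covered a median of 1537 bases against 400.

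Promoter sequences of RefSeq (GRCm38.p6), 250 bases before to 50 after a start, were found for 377 of the 443 genes, 345 of them by the same symbol and the others by an older one. Of 376 distinct genes so matched, 227 (60.4%) had at least 2 RefSeq starts and 129 (34.3%) at least 3, while 15.4% and 3.93% of all 27025 genes in that RefSeq table did. Among the 227 genes, 137 (60.4%) had both a CpG-rich start, with an observed-to-expected CpG ratio of at least 0.6, and a CpG-poor one. For 47 genes every start was CpG-rich and for 43 every start was CpG-poor. Over all RefSeq genes with at least 2 starts the mixed share was 30.5%, but the 443 genes were chosen for many starts, and a gene with more starts can more easily hold both kinds. Among genes with exactly 2 RefSeq starts, 49 of 98 (50%) were mixed, beside 26.4% of 3102 in the whole table. With exactly 3, 48 of 72 (66.7%) were, beside 41.5% of 721. Abundance was not matched in these shares. Only 69.6% of the genes with 1 listed start had a RefSeq promoter, too few for a comparison with them. The motif TATAAA stood on either strand in 9.78% of the 818 windows and in 13.6% of all RefSeq windows, and GGGCGG in 55.9% and 35.7%; a match is a run of letters and not a measured site.

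The sequences below show starts of 6 genes with a large difference between the libraries, higher in MHC403 in all but Pfkfb2. The genes and starts were picked by hand, to let unlike starts of a gene be compared. Each runs from 80 bases before the RefSeq start to 20 bases into the transcript, 5′ to 3′ on the gene's strand, with CpG dinucleotides in capitals, and starts are numbered in the direction of transcription.
Sphk1 start 1 of 5, chr11:116531020-116531119, forward strand: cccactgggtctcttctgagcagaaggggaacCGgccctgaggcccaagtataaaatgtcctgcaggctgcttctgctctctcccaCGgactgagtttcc
Sphk1 start 3 of 5, chr11:116531831-116531930, forward strand: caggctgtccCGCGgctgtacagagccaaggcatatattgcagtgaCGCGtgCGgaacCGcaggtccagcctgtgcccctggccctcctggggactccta
Sphk1 start 4 of 5, chr11:116532364-116532463, forward strand: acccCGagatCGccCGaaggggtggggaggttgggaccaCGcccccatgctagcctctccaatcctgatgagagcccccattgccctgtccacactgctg
Tgif1 start 1 of 5, chr17:70853513-70853612, reverse strand: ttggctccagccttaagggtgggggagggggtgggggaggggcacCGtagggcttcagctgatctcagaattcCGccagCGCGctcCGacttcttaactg
Tgif1 start 3 of 5, chr17:70851191-70851290, reverse strand: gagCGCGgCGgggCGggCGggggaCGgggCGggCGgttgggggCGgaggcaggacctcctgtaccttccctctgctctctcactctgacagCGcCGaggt
Tgif1 start 5 of 5, chr17:70846758-70846857, reverse strand: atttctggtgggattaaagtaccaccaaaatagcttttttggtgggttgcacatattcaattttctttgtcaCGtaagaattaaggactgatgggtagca
Txnrd1 start 1 of 3, chr10:82833871-82833970, forward strand: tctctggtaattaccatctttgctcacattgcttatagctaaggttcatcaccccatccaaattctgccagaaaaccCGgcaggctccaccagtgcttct
Txnrd1 start 2 of 3, chr10:82859126-82859225, forward strand: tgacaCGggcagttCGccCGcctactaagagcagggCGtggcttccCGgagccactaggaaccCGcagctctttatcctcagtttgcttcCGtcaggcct
Pfkfb2 start 2 of 3, chr1:130715802-130715901, reverse strand: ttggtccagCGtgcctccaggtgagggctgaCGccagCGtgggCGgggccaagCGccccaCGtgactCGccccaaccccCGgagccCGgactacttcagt
Pfkfb2 start 3 of 3, chr1:130714557-130714656, reverse strand: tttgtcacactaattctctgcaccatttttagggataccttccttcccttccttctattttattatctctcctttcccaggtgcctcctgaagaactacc
Meg3 start 1 of 2, chr12:109540916-109541015, forward strand: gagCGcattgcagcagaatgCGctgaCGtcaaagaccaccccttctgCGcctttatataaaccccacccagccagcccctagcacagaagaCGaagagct
Meg3 start 2 of 2, chr12:109545318-109545417, forward strand: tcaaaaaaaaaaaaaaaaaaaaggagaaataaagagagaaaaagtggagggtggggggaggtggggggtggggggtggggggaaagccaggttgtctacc
Fhl1 start 1 of 2, chrX:56779603-56779702, forward strand: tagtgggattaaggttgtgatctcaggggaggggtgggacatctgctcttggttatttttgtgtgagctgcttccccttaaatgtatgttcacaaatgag
Fhl1 start 2 of 2, chrX:56786447-56786546, forward strand: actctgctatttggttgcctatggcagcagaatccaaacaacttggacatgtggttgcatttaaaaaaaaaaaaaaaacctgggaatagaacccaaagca
In Tgif1, all 5 RefSeq starts had the spacing of the 5 listed starts to within 2 bases. Its start 1 and start 5, 6755 bases apart, had 20 and 2 CpG dinucleotides in their 300-base windows. Txnrd1 had 3 CpG at its first start and 27 at the second, 25255 bases on, and Meg3 13 at the first and 1 at the second. Pfkfb2 had 14 and 1 at the starts shown, and both were under the CpG-rich limit. Sphk1 had 6, 21 and 14 at the 3 starts shown, of which the last pair had the spacing of 533 bases seen between its first and second listed starts. The spacings from Sphk1 start 1 to its other RefSeq starts were not among those of its listed starts. The first 300-base windows of Sphk1, Meg3 and Fhl1 also held TATAAA on either strand, in Fhl1 outside the stretch shown. Both Fhl1 windows were CpG-poor, with 3 CpG each, and their spacing of 6844 bases was not among those of its listed starts.

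Most of the 443 genes had somewhat more reads in the MHC403 library, as did genes at large. After scaling to library totals, the median log2 ratio MHC403 over WT was 0.51 (1.43-fold), beside 0.57 in all 9507 genes and 0.59 in genes with 1 start. Of the 443 genes, 101 (22.8%) were at least 2-fold higher in MHC403, where the background over all genes with the read minimum was 26.1%. At least 2-fold lower were 7 genes (1.58%), with a background of 2.43%. At 4-fold, 18 genes were higher and 1 lower, beside 5.8% and 0.326% of all genes. These shares lie near the background. Scaling by median-of-ratios lowered all log2 ratios by 0.55, and then 43 genes were higher and 26 lower, beside 10.9% and 7.59% of all genes. At a fold of 1.5, 201 genes were higher and 16 lower, beside 49.1% and 5.62% of all genes. In 274 of the 443 genes the exact (Clopper-Pearson) 95% interval of the ratio lay wholly above 1 (61.9%, background 63.2%) and in 35 wholly below (7.9%, background 10.3%). Such intervals, given in parentheses after ratios below, cover counting error only, not amplification or differences between animals.

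**Figure D1:**
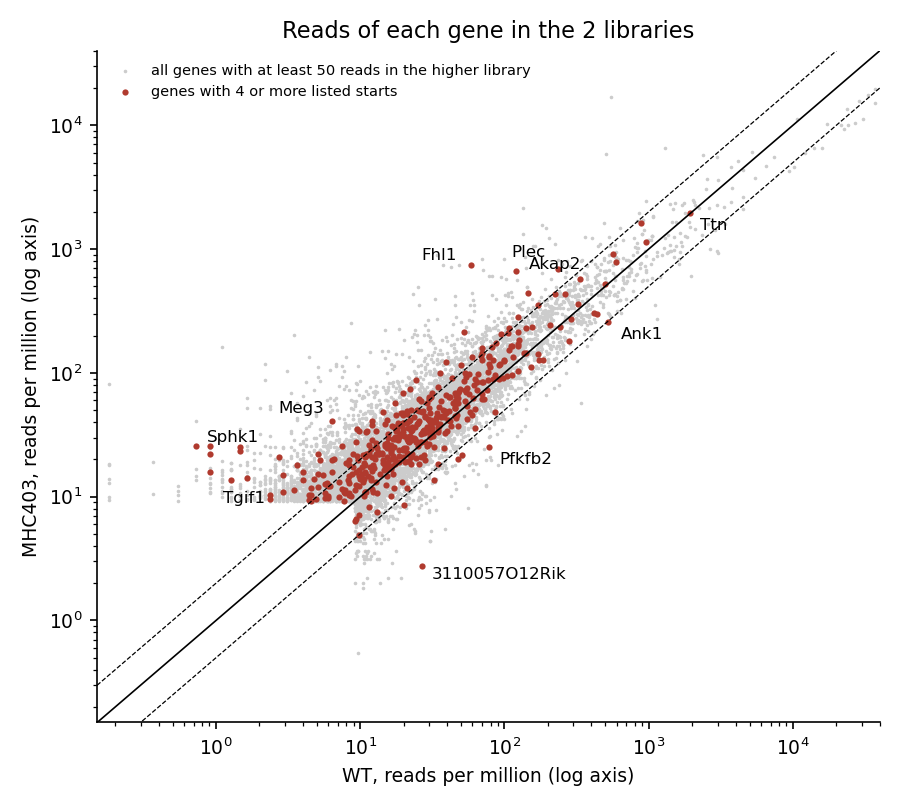
RPM of each gene in the WT library (horizontal, log axis) and the MHC403 library (vertical, log axis), with grey points for all genes that reached 50 reads in the higher library and red points for the 443 genes with 4 or more listed starts. The solid line marks equal levels and the dashed lines 2-fold differences; 101 red points lie on or above the upper dashed line and 7 on or below the lower one, and genes with 0 reads in a library are not drawn.

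Genes with 1 start were then set beside the 443 genes at matched abundance, in 10 classes that each held 44 or 45 of the genes and 343 to 911 genes with 1 start. The median log2 ratio of the genes with 4 or more starts was lower in 7 of the 10 classes, and the difference of medians ran from -0.18 to 0.14. Its mean over classes was -0.052. Its sign was not stable, since it was 0.018 with classes by WT reads and 0.0065 against the single nearest gene with 1 start. On average over the classes 22.7% of the genes with 4 or more starts and 25.5% of those with 1 start were at least 2-fold higher, and 1.59% and 2.34% at least 2-fold lower. The quartile range of the log2 ratio was 0.79 and 0.88. The quartile ranges of both kinds of gene overlapped in every class.

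**Figure D2:**
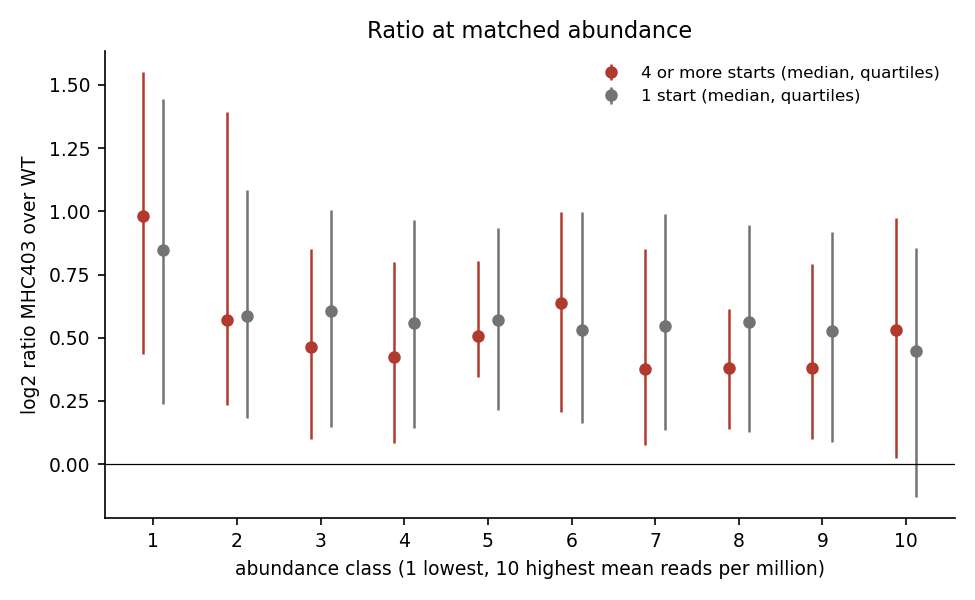
Log2 ratio MHC403 over WT (vertical) in 10 classes of mean RPM (horizontal), with points for medians and bars for quartiles, in genes with 4 or more starts (red) and genes with 1 start (grey). The bars overlap in all 10 classes, and in class 1, where reads are fewest, both medians are highest, at 0.98 and 0.85.

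Median log2 ratios were 0.52 in genes with 4 starts, 0.53 with 5, 0.48 with 6 and 0.47 with 7 or more (0.39 without 4 multi-locus entries), while genes with 3 starts, just outside the start criterion, had 0.54 (754 genes). At least 2-fold higher were 66 of 302 genes with 4 starts (21.9%), 25 of 87 with 5 (28.7%), 3 of 34 with 6 (8.82%) and 7 of 20 with 7 or more (35.0%, of which 4 are the multi-locus entries), beside 26.1% of all genes. The shares followed no order in the number of starts. By the distance between the outermost starts, the median was 0.70 in the 75 genes whose starts spread over 1 to 10 kb, 0.52 in 207 genes over 10 to 100 kb and 0.46 in 142 genes over 100 kb to 1 Mb. The shares at least 2-fold higher were 24 (32.0%), 45 (21.7%) and 27 (19%) of these genes, on both sides of the background of 26.1%. The 11 genes with all starts within 1 kb had a median of 0.57, and 1 of them was at least 2-fold higher. That gene was Mapk7 (ERK5, a stress- and growth-factor-activated kinase), with 5 starts within 304 bases and 83 reads in MHC403 against 28 in WT. Hmg20b, a chromatin protein with the most compact starts, had 266 reads against 146, Tex264 217 against 137 and Ak4 68 against 51. With column totals the MHC403 library was the higher in all 4, as in most genes at large. For Ak4 the interval of the ratio, 0.916 to 1.96, held 1. With median-of-ratios scaling its log2 ratio was -0.13.

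**Figure D3:**
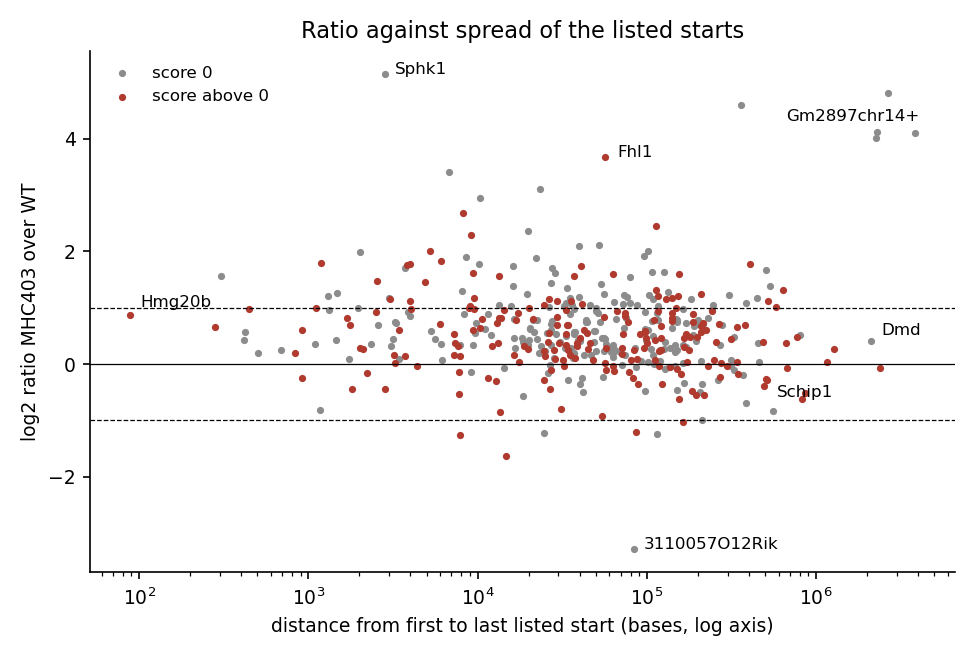
Log2 ratio MHC403 over WT (vertical) against the distance from the first to the last listed start of each of the 443 genes (horizontal, bases, log axis), coloured by whether the deposited start-site score is above 0; dashed lines mark 2-fold. The points form a broad band at every distance, with 4 multi-locus entries such as Gm2897chr14+ apart at over 1 Mb and above a log2 ratio of 4.

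Spreads over 1 Mb were found in 8 rows, among them both dystrophin rows, Pde4d and 4 entries that are not single genes. Gm2897chr14+, Gm2897chr14-, Gm10406chr14+ and Gm10406chr14- listed 17, 10, 7 and 14 starts over 2265103 to 3859930 bases of chromosome 14 (mm9), and the table describes Gm10406chr14- as alpha7-takusan and Gm2897chr14+ as a predicted gene. Their reads were 137, 129, 87 and 140 in MHC403 and 8, 8, 5 and 5 in WT, all far higher in MHC403. The windows of the entries on a strand overlap, and each entry lists many positions under 1 name, so their reads are uncertain and are not 4 separate results. Without the 6 entries that carry a position in their name, 97 of 437 genes were at least 2-fold higher and 7 were at least 2-fold lower. Dystrophin, the membrane-cytoskeleton link of muscle, was listed in 2 rows that share a start. The row Dmd, with 4 starts over 2099449 bases, had 220 reads against 166, and the row named dystrophin, with 6 starts, had 80 against 84.

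Near the read minimum, Plekha5 (50 reads in MHC403 and 42 in WT), Eif2ak4 (50 and 25) and Gm13051 (35 and 50) were just inside. Mecom (49 and 28), Satb1 (48 and 45) and Mdk (48 and 8) were just outside.

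The table also gives each gene a start-site score for the pair of libraries. It is the authors' deposited value, a whole number whose formula was not stated in the labels or headers, and it is above 0 only in rows with at least 20 reads in both libraries. A score above 0 was found in 207 of the 443 genes (46.7%; exact 95% interval 42.0 to 51.5), beside 36.2% of all genes with the read minimum and 32.8% of genes with 1 start. In the genes with 4 or more starts no class had a smaller share than the class of lower abundance before it, from 11.1% in the lowest class to 84.4% (70.5 to 93.5) in the highest. In genes with 1 start the same classes had 17.9% and 35.6% (31.9 to 39.3). In the 2 lowest classes the genes with 4 or more starts had the smaller share, and in the other 8 the larger. A score of at least 20 was held by 83 of the 428 genes with 20 reads in both libraries (19.4%) and by 352 of 5843 such genes with 1 start (6.02%). Windows were longer in genes with more starts, and the part of window length in the score was not tested.

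**Figure D4:**
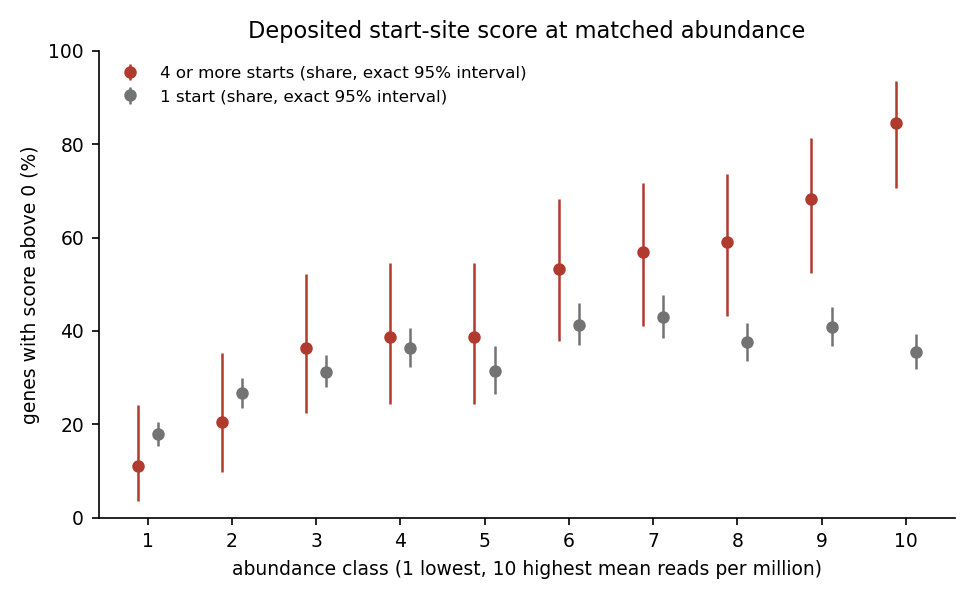
Share of genes with a deposited start-site score above 0 (vertical, percent) in 10 classes of mean RPM (horizontal), with exact 95% binomial intervals, for genes with 4 or more starts (red) and genes with 1 start (grey). The red share climbs to 84.4% in class 10 while the grey share is 35.6% there, and the intervals do not overlap in classes 8, 9 and 10.

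The highest scores belonged to genes with large and with small ratios alike. Fhl1, a muscle protein built of LIM domains (mm9 chromosome X, 53984964 to 54046523), had a score of 257, the second highest of the table. Its 4 starts lay at 53984964, 53985134, 54032865 and 54041166, and it had 4103 reads in MHC403 against 323 in WT, a ratio of 12.7 (11.4 to 14.3). Of the 13 genes with a score of at least 70, a bound chosen after the values were seen, 5 were at least 2-fold higher and 8 within 2-fold, and Ube2d3 was among the 5 with column totals only. For 4 of the 13 the interval of the ratio held 1.

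Schip1, which encodes a cytoskeletal adaptor that binds the product of the neurofibromatosis gene Nf2 (chromosome 3, 67868724 to 68430404), had a score of 151 with 264 reads against 317, a ratio of 0.835 (0.706 to 0.986). Slc27a1, a fatty acid transport protein (chromosome 8, 74092826 to 74110607), had a score of 104 with 567 reads against 676, a ratio of 0.841 (0.751 to 0.941). With column totals both genes thus had fewer reads in MHC403 by a small margin, and a score among the highest. With median-of-ratios scaling the margin was larger, with log2 ratios of -0.81 for Schip1 and -0.80 for Slc27a1. Ube2d3, a ubiquitin-conjugating enzyme with 5 starts, had 146 with 1928 reads against 939, a ratio of 2.06 (1.90 to 2.23), and it overlaps 2 other rows. Sema3b, a secreted guidance protein, had 87 with 224 reads against 66, and the actin-severing gelsolin, Gsn, also 87 with 4275 reads against 3263. The cohesin loader Nipbl had 74 with 120 reads against 118, close to equal. The overlapping rows 2210404J11Rik and Gm3435 had 94 and 79, with 201 and 202 reads in MHC403 and 191 and 192 in WT, and since their windows overlap they are not separate results.

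Among genes with the largest excess in MHC403, Sphk1, the kinase that makes the lipid signal sphingosine 1-phosphate (chromosome 11, 116393225 onward), had 141 reads against 4. Its ratio was 35.3 (13.5 to 131) and its 4 starts spread over 2829 bases. Fam38b, with 4 starts on chromosome 18, had 121 reads against 5, a ratio of 24.3 (10.1 to 76.0). Tgif1, a homeobox corepressor of TGF-beta signalling (chromosome 17, 71193545 onward), had 74 against 7, a ratio of 10.6 (4.89 to 27.3). In all 3 the WT library held fewer than 10 reads, and the score was 0.

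Lilrb4, an inhibitory receptor of myeloid and mast cells, had 115 reads against 15, a ratio of 7.68 (4.47 to 14.2), and it overlaps the row of its close relative Gp49a, at 100 against 16. Macrophage markers were higher in the same library, in 6 of 7 with the read minimum by at least 2-fold, and their part in this ratio was not tested. Akap2, an anchor of protein kinase A with 4 starts over 112467 bases, had 3608 reads against 660, a ratio of 5.48 (5.04 to 5.96), and a score of 61. The clock repressor Per1 had 1160 against 289, a ratio of 4.02 (3.53 to 4.59), and was named after its values were seen.

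Among the 7 genes at least 2-fold lower in MHC403 were 3110057O12Rik, Pfkfb2, Rasgrp2, Myh8, Wnk2 and Ank1. In 3110057O12Rik, whose listed starts spread over 83611 bases of chromosome 3, there were 15 reads against 146, and the level was 9.71-fold (5.70 to 17.8) lower. Pfkfb2, the heart isoform of the enzyme that makes the phosphofructokinase activator fructose 2,6-bisphosphate, had 138 against 428, 3.09-fold (2.55 to 3.78) lower, with a score of 45. The last pair of its 4 listed starts, at 132611153 and 132611152 on chromosome 1, differ by 1 base, so it had 3 after merging. Rasgrp2, an activator of the small GTPase Rap1, had 74 against 177, 2.39-fold (1.81 to 3.17) lower, with a score of 34.

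Wnk2, a kinase of ion transport control, had 119 against 277, 2.32-fold (1.87 to 2.90) lower. Ank1, which ties membrane proteins to spectrin and in muscle to the sarcoplasmic reticulum, had 1403 against 2865, 2.04-fold (1.91 to 2.17) lower, and was the lower gene with most reads. Myh8, with 111 against 262, shares a start with the row Myh2, at 72 against 181, and its reads are uncertain. Of 5 skeletal muscle markers with the read minimum 3 were at least 2-fold lower in the same library and 1, Acta1, was at least 2-fold higher. Myh2 is itself on that marker list, so the markers and the Myh8 row are not separate results. The part of skeletal muscle markers in this ratio was not tested. Just short of 2-fold, Mccc2 (leucine breakdown) had 101 against 191, Ank2 263 against 468 and the cyclic AMP phosphodiesterase Pde4a 197 against 345. These 3 passed 2-fold with median-of-ratios scaling.

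**Figure D5:**
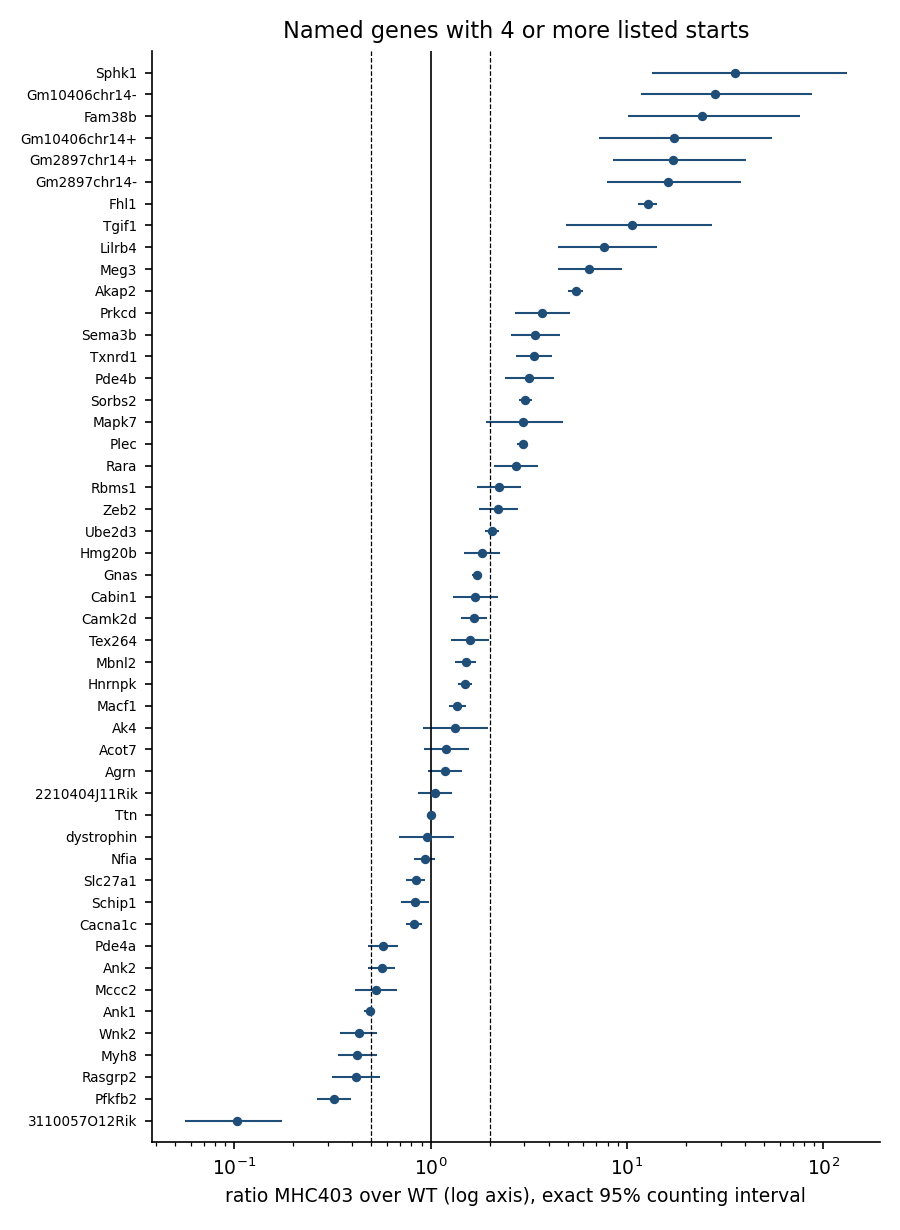
Ratio MHC403 over WT (horizontal, log axis) of the named genes with 4 or more listed starts, each with its exact 95% counting interval, sorted by ratio; dashed lines mark 2-fold. The points run from 0.103 in 3110057O12Rik to 35.3 in Sphk1, and the interval is narrow where reads are many, as in Ttn at 1.01.

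Genes of the sarcomere, the Z-disc and cytoskeletal linkers were the largest group among the lists examined, with 24 of the 443 genes. They came from 56 genes of the list with the read minimum, and group size depends in part on which genes each list was given. The counts of this and the following lists stand beside 26.1% higher and 2.43% lower over all 9507 genes, and on lists this small a gene or so moves the share widely. Of these, 5 were at least 2-fold higher, 1 was lower and 18 were within 2-fold, with a median log2 ratio of 0.39, beside 0.57 over all genes with the read minimum. All 56 genes of the list with the read minimum had 25 higher, 1 lower and a median of 0.58. The 5 were Fhl1, Sorbs2, Plec, Synpo and Sorbs3. Sorbs2, an adaptor of Z-discs and intercalated discs with 5 starts over 154201 bases, had 2424 reads against 799, a ratio of 3.04 (2.81 to 3.30), and a score of 86. Plec (plectin, a cross-linker of desmin filaments, chromosome 15, 76001404 to 76063000) had 12 starts, the most of any single gene here, and 3759 reads against 1279, a ratio of 2.95 (2.76 to 3.14).

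The actin-bundling protein synaptopodin, Synpo, had 1128 reads against 520 and vinexin, Sorbs3, 335 against 165. Ank1 was the lower gene of the group. Titin, Ttn, the spring of the sarcomere and the gene with most reads of the 443, had 10697 reads against 10604, a ratio of 1.01 (0.984 to 1.04). Macf1, a linker of actin and microtubules with 8 starts, had 929 against 682. A score above 0 was found in 17 of the 24 genes, where 46.7% of the 443 had one. Abundance was not matched here, and the score share of the 443 genes was larger at higher abundance. With median-of-ratios scaling Fhl1, Plec and Sorbs2 were still past 2-fold, Synpo and Sorbs3 were not, and 4 of the 24 were lower.

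Transcription regulators numbered 15, with 5 at least 2-fold higher, none lower and a median of 0.46, and the 67 genes of that list with the read minimum had 15 higher, 1 lower and a median of 0.43. The imprinted noncoding RNA Meg3 had 223 reads against 35, a ratio of 6.39 (4.46 to 9.40), from 5 listed starts within 8161 bases. The retinoic acid receptor Rara had 228 against 84, a ratio of 2.72 (2.11 to 3.54), the repressor Zeb2 254 against 115, Foxp1 217 against 100 and Clock 99 against 46. Of these 5, Meg3 alone was past 2-fold with median-of-ratios scaling. Nfia, a nuclear factor I gene, had 498 against 534 and was near equal.

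Genes of cyclic nucleotide, G protein and kinase signalling numbered 11, of which 3 were at least 2-fold higher and 1, Wnk2, lower, with a median of 0.60. Over the 49 genes of the list with the read minimum 12 were higher and 3 lower, with a median of 0.40. Protein kinase C delta, Prkcd, had 191 reads against 52, a ratio of 3.68 (2.70 to 5.10). The cyclic AMP phosphodiesterase Pde4b had 209 against 66, a ratio of 3.17 (2.40 to 4.25), whereas its relatives Pde4a and Pde4d had 0.572 (0.478 to 0.684) and 97 against 81 reads. Akap13, an anchor of protein kinase A, had 791 against 384 and was within 2-fold with median-of-ratios scaling, under which Pde4a was lower. Gnas, the imprinted gene of the stimulatory G protein, had 3122 against 1821 over 4 starts, a ratio of 1.72 (1.62 to 1.82), and a score of 0 in spite of its many reads.

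Of the calcium, calcineurin and calmodulin kinase list 4 genes had 4 or more starts, and all were within 2-fold, with a median of 0.25. The L-type calcium channel gene Cacna1c had 772 reads against 938, its subunit gene Cacnb2 a ratio of 0.85, the kinase Camk2d 472 against 285, and Cabin1, an inhibitor of calcineurin, 162 against 96. The 29 genes of this list with the read minimum had 9 higher and 1 lower. Of 5 RNA-binding genes 1 was higher, Rbms1, with 202 against 91, which was within 2-fold with median-of-ratios scaling. Hnrnpk (1280 against 856) and Mbnl2 (648 against 430) were within 2-fold. None of the 5 had a score above 0. The 45 genes of that list with the read minimum had 6 higher and 1 lower.

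Of the 57 metabolic genes with the read minimum 3 had 4 or more starts, where 443 of all 9507 genes did. Of 3, thioredoxin reductase Txnrd1, an antioxidant enzyme, was higher, with 406 reads against 121 and a ratio of 3.36 (2.74 to 4.15), Pfkfb2 was lower, and the thioesterase Acot7 had 131 against 109. Of the 57 genes of that list with the read minimum 3 were higher and 5 lower. The list of channels and transporters had 0 genes with 4 or more starts out of 23 with the read minimum. Of 55 matrix and growth factor genes only Agrn, a basement membrane proteoglycan, had 4 or more starts, with 218 against 184. In that list 38 of the 55 were at least 2-fold higher, and none of those 38 had 4 or more starts. At the share over all genes, 443 of 9507, lists of this size would hold few such genes. The counts for both lists therefore show no shortage of them.

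For 34 of the 443 genes another row with fewer listed starts shared at least 1 start and had the read minimum, giving 35 such pairs of rows. A row with 1 start counts reads over a smaller window of the locus, but the labels and headers do not say how reads in shared windows were assigned. In 22 of the 35 pairs the ratios of both rows were within 1.2-fold of each other, which shared windows favour, since both rows can count the same reads. In 11 pairs the smaller read total was at least 80% of the larger, and 9 of these were within 1.2-fold, as were 13 of the other 24 pairs. In 4 pairs they were at least 1.5-fold apart, and these are named after their values were seen. The Plec row with 12 starts had 3759 reads against 1279, while Plec1, with 3 starts of which 2 are shared, had 144 against 114, a ratio of 1.27 (0.983 to 1.63). The Plec row thus held many more reads than Plec1 and a larger excess in MHC403.

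Spag9, a scaffold of JNK signalling, had 374 reads against 250, a ratio of 1.5 (1.27 to 1.77), over 4 starts. The row JSAP2, which lists only the first of these starts (chromosome 11, 93857405), had 78 against 23, a ratio of 3.40 (2.11 to 5.67). Ccl27a, listed as a chemokine over 208768 bases, had 95 against 64, and a row with 1 of its starts had 57 against 17, a ratio of 3.36 (1.93 to 6.16). The other pair was Gm10406chr14- with Gm2897chr14-. Camk2d had a ratio of 1.66 (1.43 to 1.93), and the row Camk2gchr3+, with 1 start shared with it, had 277 against 123, a ratio of 2.26 (1.82 to 2.81). For Camk2d the intervals of the row with 4 starts and the row with 1 start overlap, and for Spag9 they do not. The rows of a pair can count the same reads, and Spag9 was named after its values were seen. A difference between starts was therefore not tested in either gene.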

How the data were processed

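5′RNA-seq measured 2 pooled heart libraries, 1 per genotype. Per the submitters' processing notes reads were aligned with TopHat 1.0.14 to mm9; no label or header names the counting program or its use of strand or of multiply mapped reads. The authors' table holds read counts of each gene, per the file headers, and deposited normalized reads that on recomputation were RPM of the column total (largest difference 4.05e-06). The authors' deposited fold (a ratio of normalized reads) and p-value were not used, and the authors' deposited score was used as given. Coordinates are mm9 and 1-based; RefSeq sequences are GRCm38.p6 and were matched by symbol only.

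The members, lists and rules were chosen with earlier results of these data known. Reads were scaled to column totals (5468677 and 5481123); no columns of other samples were present. Ratios have exact Clopper-Pearson intervals conditional on both libraries' reads, at 95%. At 1 library per genotype no test was made. Abundance classes split the members into 10 by mean RPM. A library at 0 reads was set to 3 counts, which no member needed. Named were the 10 higher and 10 lower members with the nearer interval bound farthest from 1, the 5 with most starts, 4 widest, 4 narrowest, 6 highest scores, and up to 4 of each function list. Genes at the read minimum are named by that place, and Nipbl, Gm3435, Gsn, Per1, Dmd, Synpo, Sorbs3, Foxp1, Clock, Akap13, Pde4d, Cacnb2, Spag9 and Ccl27a were named after their values were seen; 1 gene that the rule picked is not reported here. Calculations used Python 3.11.15 with scipy 1.17.1, and edgeR 4.0.16 (TMM) and DESeq2 1.42.0 (median-of-ratios) for scaling alternatives only, and were tested on simulated data.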

Additional observations from a re-analysis of the deposited data

How the results depend on the processing

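Median-of-ratios and TMM scaling each gave 43 higher and 26 lower genes in place of 101 and 7, and turned the median log2 ratio from 0.51 to -0.035 and -0.033, a shift shared by all genes. With a minimum of 20 reads 12 of 532 genes (2.26%) were lower and 40.2% had a score above 0. With 200 reads 44 (22.2%) were higher and 4 (2.02%) lower of 198, and 66.7% had a score. Shares over all genes were not computed at minima of 20 and 200 reads, and the score share was larger at higher abundance. With 5 or more starts 35 (24.8%) were higher and 2 (1.42%) lower of 141, beside 26.1% and 2.43% of all genes. After starts within 100 bases were merged, 4 of 368 (1.09%) were lower. A fold of 1.5 gave 201 higher (45.4%) and 16 lower (3.61%), beside 49.1% and 5.62% of all genes. The difference from 1-start genes at matched abundance, -0.052, became 0.0062 with 5 or more starts, 0.018 with classes by WT reads and 0.0065 against the nearest gene, while it was -0.089 (-0.21 to -0.013 over classes without the lowest and highest) with a minimum of 20 reads and -0.062 with 200, so its sign depends on these choices; the cause was not tested. Leaving out rows with overlapping windows moved no result beyond these limits, nor did leaving out entries with a position in the name, an alternative chosen after seeing the data. Of the 50 genes that the naming rule picked, column totals put 22 past 2-fold as higher and 7 as lower, and median-of-ratios 18 and 10. No paired analysis was possible because each genotype has 1 library. Depth limits single genes: Sphk1, with 4 WT reads, has a ratio interval from 13.5 to 131.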
